A study of Homo sapiens with 6 samples.

Results

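The 9 laminin chain genes LAMA1, LAMA2, LAMA3, LAMA4, LAMA5, LAMB1, LAMB2, LAMB3 and LAMC1 were examined. They were taken by name from the 60623 genes of the deposited table of FPKM (fragments scaled by gene length and by a total for each library). RNA was measured in LX2, an established line of human hepatic stellate cells, the matrix producers of the fibrotic liver, grown in medium with 2% serum. Cells given siRNA against SHMT2, the mitochondrial serine hydroxymethyltransferase, for 36 h (siSHMT2, 3 libraries) were set against cells given the control siRNA siNC for the same time (3 libraries). The labels do not say whether the libraries came from separate cultures, so every p-value reflects the scatter of these libraries alone, and that scatter may be technical. Each group is the same cell line under 1 siRNA label, and the labels do not say whether that was 1 siRNA or a pool. With 1 siSHMT2 treatment, the knockdown cannot be told apart from other effects of that treatment, and untransfected cells were not analysed here.

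Laminins are cross-shaped glycoproteins built from an alpha, a beta and a gamma chain that join in a coiled coil before secretion. They polymerise into the first layer of a basement membrane, bind nidogen, agrin and perlecan, and are held to cells by integrins and by dystroglycan, whose sugar chain must be built by a dedicated set of enzymes. In liver, stellate cells lie in the space between hepatocytes and sinusoidal endothelium, and they are among the cells that deposit basement membrane proteins as fibrosis develops. LAMA1 and LAMA5 encode full-length alpha chains that can polymerise, LAMA4 a short-armed alpha chain of vessel and mesenchymal laminins, LAMA2 the alpha chain of muscle and nerve, and LAMA3 the alpha chain of epithelial anchoring laminin. LAMB1 and LAMB2 encode the general beta chains, LAMB3 the short beta chain of epithelial anchoring laminin, and LAMC1 the gamma chain shared by most laminins.

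The knockdown matched the labels: SHMT2 was at 2.25, 2.10 and 2.42 FPKM in siSHMT2 libraries, against 40.8, 56.3 and 45.1 FPKM in siNC libraries. The FPKM corresponded to 14722344 to 15669139 recovered reads per library. Summed FPKM of 9 stellate and mesenchymal markers was 1246 to 1458 in siSHMT2 and 1643 to 2535 in siNC libraries, with VIM and COL1A1 abundant in all 6 and LRAT, a retinoid enzyme of quiescent stellate cells, at 0 in all 6. The sum of 5 hepatocyte markers was 0.298 to 0.454 in siSHMT2 and 0.330 to 1.36 in siNC libraries, and that of 5 endothelial markers 0.310 to 0.435 in siSHMT2 and 0.416 to 0.626 in siNC libraries. For 5 cholangiocyte and epithelial markers the sum was 8.72 to 9.66 in siSHMT2 and 9.82 to 11.2 in siNC libraries, carried mainly by SOX9 and KRT7. For 5 leukocyte markers it was 13.6 to 15.4 in siSHMT2 and 14.6 to 19.5 in siNC libraries, carried by CD14, with PTPRC at 0.0132 FPKM or less. The mesenchymal and epithelial sums did not overlap between groups and were lower in siSHMT2 libraries, while the hepatocyte, endothelial and leukocyte sums overlapped. VIM, TIMP1 and COL1A1 made up most of the mesenchymal sum. Of these only VIM did not overlap, with a mean of 501 FPKM in siSHMT2 and 823 in siNC libraries. COL1A2, COL3A1 and ACTA2 had higher means in siSHMT2 libraries and PDGFRB a lower mean, all with overlap. DES had 0.232 FPKM at most. The part of these markers in the results on laminin chains was not tested. In bulk RNA, fewer cells making a transcript and less of it per cell cannot be told apart.

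In the reported fit LX2 cells given siSHMT2 had less mRNA of LAMB3 and LAMC1, and the other chains did not pass the test. Over 17 alternative fits the call was kept under 12 for LAMB3 and under 8 for LAMC1, whose call depended on how the libraries were scaled. A gene entered the test with a mean of at least 1 FPKM over the 6 libraries, which 7 of the 9 chains reached. By limma on log2(FPKM + 1), adjusted over all 10865 genes tested, 2 of the 7 chains were lower and 0 were higher at an adjusted p below 0.05, beside 9.85% of all genes tested called lower and 6.07% called higher. At an unadjusted p below 0.05, 4 chains were lower and 0 higher, beside 16% of all genes tested lower and 14.2% higher. At the adjusted threshold, limma voom on recovered reads called 1 chain lower, LAMB3, and 0 higher. The count of lower chains was 0 without siSHMT2 replicate 1, 2 or 3 or siNC replicate 3, and 3 without siNC replicate 1. The 7 chains had a median log2 fold change of -0.33, against 0.02 over all genes tested, and 5 of the 7 had values in siSHMT2 wholly below siNC, which 18.6% of all genes tested had.

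**Figure D1:**
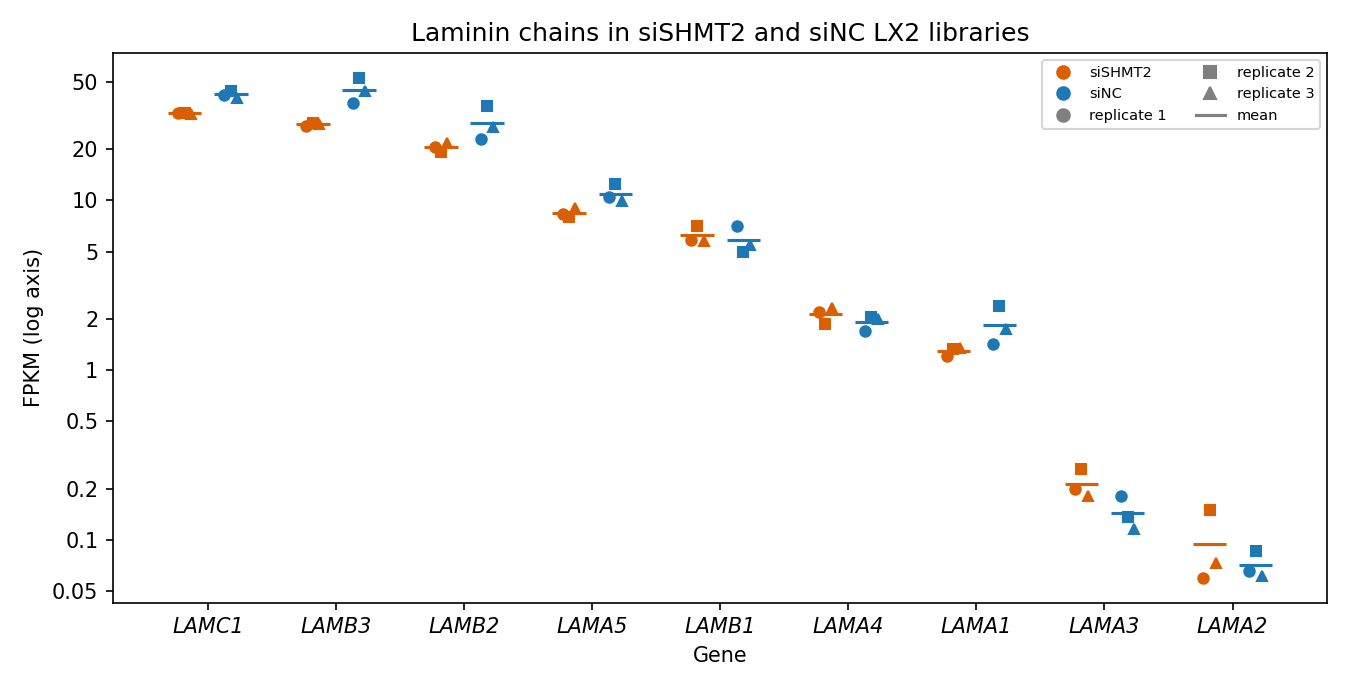
FPKM of the 9 laminin chains in each library on a log axis, with siSHMT2 in orange to the left of siNC in blue, symbols for replicate numbers and bars for means of 3 libraries. LAMC1, LAMB3, LAMB2, LAMA5 and LAMA1 lay lower in every siSHMT2 library than in any siNC library, and LAMB1, LAMA4, LAMA3 and LAMA2 overlapped.

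LAMB3 (chromosome 1, 209614870 to 209652425, minus strand, in coordinates that match GRCh38) moved furthest among the tested chains. It had 27.6, 28.6 and 28.3 FPKM in siSHMT2 libraries, against 37.3, 52.6 and 44.2 FPKM in siNC libraries. The 3 siSHMT2 libraries lay close together and below every siNC library, whose own values were more widely spread. The mean was 28.1 ± 0.518 FPKM in siSHMT2 and 44.7 ± 7.64 in siNC (SD, n = 3 each), which puts siSHMT2 at 63.0% of siNC. LAMB3 fell by 0.64 on the log2(FPKM + 1) scale (SE 0.137, limma adjusted p = 0.0191), with a 95% confidence interval from -0.95 to -0.32. The call was lost without siSHMT2 replicate 1, 2 or 3 (limma adjusted p = 0.0901, 0.0694 and 0.0748), without siNC replicate 3 (0.0537) and with no filter on low genes (0.0615), while the log2 fold change stayed between -0.76 and -0.51 over all 17 alternatives. LAMB3 is a chain of epithelia. The summed level of the 5 epithelial markers was lower in every siSHMT2 library (8.72 to 9.66 FPKM) than in any siNC library (9.82 to 11.2 FPKM), but each marker alone overlapped. SOX9, which carried most of the sum, had 6.31 to 7.76 FPKM in siSHMT2 and 6.88 to 9.45 FPKM in siNC libraries (limma adjusted p = 0.456). KRT7 had 1.21 to 2.20 FPKM in siSHMT2 and 1.40 to 2.65 FPKM in siNC libraries (0.465). KRT19, below the filter, had 0.190 to 0.542 FPKM in siSHMT2 and 0.190 to 0.384 FPKM in siNC libraries, with a higher mean in siSHMT2 libraries (0.386 against 0.298). EPCAM and CDH1, which define epithelia, were at or near 0, with 0.0252 and 0.0312 FPKM at most. The part of these markers in the result on LAMB3 was not tested.

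LAMC1 (chromosome 1, 183023420 to 183145592, plus strand) had 32.9, 32.6 and 32.2 FPKM in siSHMT2 libraries, against 42.0, 44.1 and 40.2 FPKM in siNC libraries. Both groups were tight and did not overlap, with siSHMT2 at 77.4% of siNC by their means. LAMC1 fell by 0.36 on the log2 scale (SE 0.0971, limma adjusted p = 0.0435), with a 95% confidence interval from -0.58 to -0.13. This call lay close to the threshold. It was lost after rescaling to TPM (-0.27, limma adjusted p = 0.201), in voom on recovered reads (-0.29, 0.0954) and with FPKM from plain read sums (-0.28, 0.0957). It was also lost with quantile normalization (-0.36, 0.0514) and with a replicate block (-0.36, 0.13). The same held without siSHMT2 replicate 1, 2 or 3 (0.175, 0.148 and 0.173) or siNC replicate 3 (0.0661). The median over all genes was 0.11 with TPM, 0.10 with voom and 0.08 with plain read sums, against 0.02 in the fit on deposited FPKM. Relative to the median of each fit LAMC1 stood at -0.38 with TPM, -0.39 with voom and -0.37 with plain read sums, against -0.38 in the fit on deposited FPKM. Its SE was 0.118 with TPM and 0.108 with voom, against 0.0971 in that fit.

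LAMB2, LAMA5 and LAMA1 had lower values in every siSHMT2 library than in any siNC library, but did not pass the adjusted threshold. LAMB2 had 20.6, 19.2 and 21.9 FPKM in siSHMT2 libraries, against 23.1, 35.9 and 26.9 FPKM in siNC libraries. Its log2 fold change was -0.44 (95% interval -0.81 to -0.06, limma adjusted p = 0.111), and siNC replicate 2 stood above the rest of its group. Without that library the log2 fold change was -0.27 (adjusted p = 0.147). LAMB2 was called lower only without siNC replicate 1 (-0.57, adjusted p = 0.0352) and with array weights (-0.38, 0.0102), among the 17 alternatives.

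LAMA5 had 8.35, 8.04 and 9.003 FPKM in siSHMT2 libraries, against 10.5, 12.4 and 9.95 FPKM in siNC libraries. The log2 fold change was -0.33 (95% interval -0.59 to -0.08, limma adjusted p = 0.0788). ADRM1, a proteasome ubiquitin receptor gene on the opposite strand at the edge of LAMA5, had 146.5 to 194 FPKM in siSHMT2 and 172.5 to 238 FPKM in siNC libraries. The exons of the genes shared 244 bases, 1.71% of the exonic bases of LAMA5 in GENCODE release 29. Strand use in counting is not stated, so how reads there were assigned is not known. LAMA1 was low, with 1.21, 1.34 and 1.34 FPKM in siSHMT2 libraries from 307 to 353 reads, against 1.43, 2.39 and 1.74 FPKM in siNC libraries from 396 to 549 reads. Its log2 fold change was -0.30 (95% interval -0.63 to 0.03, limma adjusted p = 0.208), and -0.17 without siNC replicate 2 (adjusted p = 0.372), the highest library.

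LAMB1 and LAMA4 were the tested chains with a positive log2 fold change. LAMB1 had 5.89, 7.08 and 5.78 FPKM in siSHMT2 libraries, against 7.06, 4.99 and 5.48 FPKM in siNC libraries. The groups overlapped, with siNC replicate 1 close to the highest siSHMT2 library, and the log2 fold change was 0.09 (95% interval -0.23 to 0.40, limma adjusted p = 0.702). DLD, on the opposite strand, had 18.3 to 21.8 FPKM in siSHMT2 and 15.9 to 19.7 FPKM in siNC libraries. The exons of DLD and LAMB1 shared 70 bases, 0.86% of the exonic bases of LAMB1, and how reads there were assigned is again not known. LAMA4 had 2.19, 1.88 and 2.34 FPKM in siSHMT2 libraries, against 1.71, 2.07 and 1.99 FPKM in siNC libraries, again with overlap. Its log2 fold change was 0.10 (95% interval -0.16 to 0.36, limma adjusted p = 0.593), and it ran from 0.05 without siNC replicate 1 to 0.16 without siSHMT2 replicate 2. These intervals leave room for falls of up to 0.23 and 0.16 and for rises of up to 0.40 and 0.36 on the log2 scale.

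LAMA3 and LAMA2 averaged less than 1 FPKM and did not enter the test. LAMA3 had 0.1997, 0.263 and 0.181 FPKM in siSHMT2 libraries from 42 to 64 reads, against 0.183, 0.136 and 0.117 FPKM in siNC libraries from 27 to 47 reads, and the groups overlapped. LAMA2 had 0.0602, 0.151 and 0.0733 FPKM in siSHMT2 libraries from 10 to 26 reads, against 0.0662, 0.0866 and 0.0613 FPKM in siNC libraries from 10 to 13 reads. In the fit with no filter the adjusted p was 0.494 for LAMA3 and 0.73 for LAMA2 (limma). LAMB4 and LAMC3, further laminin chains, had at most 7 and 4 reads in any library. LAMA3, the alpha chain that joins LAMB3 in epithelial anchoring laminin, was thus present at well under 1 FPKM in libraries where LAMB3 was among the most abundant chains.

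The levels of the chains, which FPKM makes comparable per length, kept nearly one order. In siSHMT2 libraries the order from the top was LAMC1, LAMB3, LAMB2, LAMA5, LAMB1, LAMA4, LAMA1, LAMA3 and LAMA2, and no neighbours overlapped in range. In siNC libraries LAMC1 and LAMB3 overlapped, with LAMC1 above LAMB3 in 1 of 3 libraries, whereas it was above LAMB3 in 3 of 3 siSHMT2 libraries. LAMA4 and LAMA1 were the only other neighbours to overlap in siNC libraries, and LAMA4 was above LAMA1 in 3 of 3 siSHMT2 libraries. Alpha chains were the scarcest class. The 5 alpha chains summed to 12.2 ± 0.653 FPKM in siSHMT2 and 15.0 ± 1.87 FPKM in siNC libraries (SD, n = 3 each), and the 3 beta chains to 54.97 ± 0.973 FPKM in siSHMT2 and 79.2 ± 13.2 FPKM in siNC libraries. Beta chains were thus 4.33 to 4.70 times the alpha chains in siSHMT2 libraries and 4.86 to 5.52 times in siNC libraries. All 9 chains together summed to 99.0, 99.2 and 101.1 FPKM in siSHMT2 libraries, against 123, 155 and 131 FPKM in siNC libraries.

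Within the classes, the shares of FPKM held by each chain differed modestly. LAMA4 made up 18.2%, 16.1% and 18.1% of the alpha-chain FPKM in siSHMT2 libraries, against 12.3%, 12.1% and 14.4% in siNC libraries. LAMA5 made up 69.5%, 68.8% and 69.6% in siSHMT2 libraries, against 75.6%, 72.6% and 71.8% in siNC libraries. Neither share overlapped between groups. Among beta chains LAMB3 made up 51.0%, 52.1% and 50.5% in siSHMT2 libraries, against 55.3%, 56.2% and 57.7% in siNC libraries, without overlap. LAMB1 made up 10.3% to 12.9% in siSHMT2 and 5.34% to 10.5% in siNC libraries, and these overlapped.

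**Figure D2:**
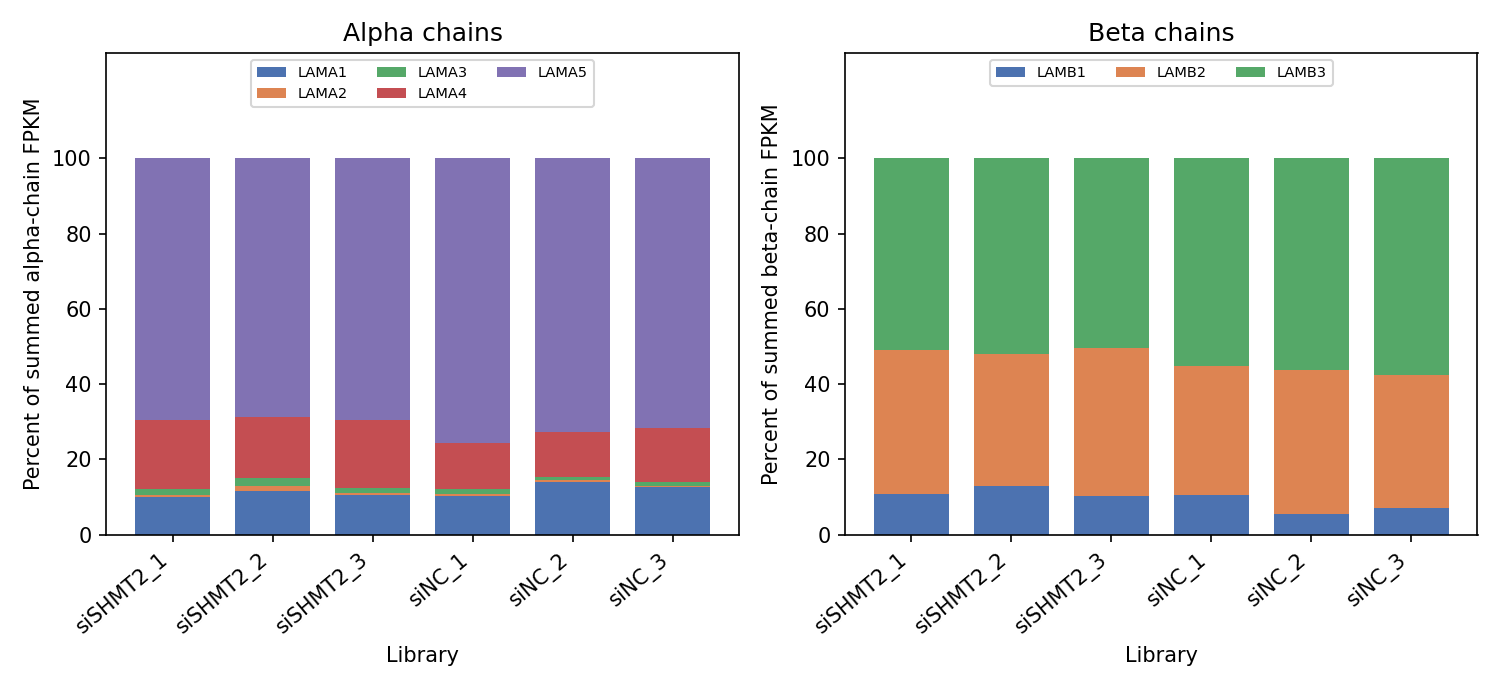
Share of the summed FPKM of 5 alpha chains (left) and 3 beta chains (right) held by each chain, in percent, as stacked bars for each siSHMT2 and then each siNC library. LAMA5 held 68.8% to 75.6% of the alpha chains and LAMB3 50.5% to 57.7% of the beta chains, and LAMA4 took a larger share in each siSHMT2 library than in any siNC library.

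Whether chains changed to a different extent was tested on the ratio of their log2(FPKM + 1) values in each library, for 3 ratios. The log2 ratio of LAMA4 to LAMA5 was -1.55, -1.65 and -1.58 in siSHMT2 libraries, against -2.09, -2.13 and -1.87 in siNC libraries. It was higher in every siSHMT2 library, by 0.43 on average (exact permutation test, two-sided, p = 0.1, adjusted over the 3 ratios p = 0.15). The log2 ratio of LAMB1 to LAMC1 was -2.30, -2.06 and -2.29 in siSHMT2 libraries, against -2.41, -2.91 and -2.67 in siNC libraries, a difference of 0.45 (exact permutation p = 0.1, adjusted p = 0.15). The log2 ratio of LAMB1 to LAMB2 was -1.65, -1.32 and -1.76 in siSHMT2 libraries, against -1.58, -2.62 and -2.11 in siNC libraries, and these overlapped (difference 0.53, and 0.27 without siNC replicate 2, exact permutation p = 0.3, adjusted p = 0.3). With 3 against 3 libraries 0.1 is the smallest p the test allows, so none of these ratios could reach 0.05.

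Among 9488 other tested protein-coding genes, the profiles most like each called chain were found by the root-mean-square difference between mean-centred log2(FPKM + 1) values over the 6 libraries. For LAMB3 these were WDR77, a subunit of the protein arginine methylation complex, at 0.0481, and NTM, the neural adhesion protein neurotrimin, at 0.0538. For LAMC1 they were TNFRSF1A, the main receptor of tumour necrosis factor, at 0.0206, and TMEM14B, a membrane protein, at 0.0295.

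An earlier search of these same fold changes singled out 2 words of 7 bases in 3′ UTRs, GACTTTA and ACTTTAA, so their presence is given here as a description only. The longest annotated 3′ UTR of each chain was searched for the sense-strand words, which overlap in the letters ACTTTA. None of the 7 tested chains held either word, LAMB3 (401 bases) and LAMC1 (2802 bases) included, while 2406 of 9413 tested protein-coding genes other than SHMT2 did (25.6%). The 7 chains had a median 3′ UTR of 401 bases, against 1574 bases over those 9413 genes, and a shorter sequence has fewer places for a word. LAMA3 alone among the 9 chains held one, at base 341 of its 3′ UTR. The site is shown because it is the only match among the 9 chains, with the word in capitals, in the sense of the transcript on the plus strand of GRCh38 (chr18:23954978-23955006, from GENCODE release 29).
LAMA3: tattttaaagcACTTTAAgaatatgaaac

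Genes that hold laminin to the cell were lower for part of a list of 15 receptors. Of the 14 that entered the test, 4 were lower and 0 higher by limma beside 9.85% and 6.07% of all genes tested, with a median log2 fold change of -0.13 against 0.02. At an unadjusted p below 0.05, 5 were lower and 0 higher, beside 16% and 14.2% of all genes tested. The count at the adjusted threshold was 2 without siSHMT2 replicate 1, 2 or 3 or siNC replicate 3. ITGB1, the beta subunit shared by most laminin-binding integrins, had 13.4, 16.4 and 13.0 FPKM in siSHMT2 libraries, against 57.9, 36.6 and 34.9 FPKM in siNC libraries. It fell by 1.501 on the log2 scale (SE 0.199, limma adjusted p = 0.00266) and was called under all 17 alternatives. ITGA6, the alpha subunit of the laminin-binding integrins of epithelial and mesenchymal cells, had 10.1, 13.0 and 10.8 FPKM in siSHMT2 libraries, against 19.0, 15.4 and 15.0 FPKM in siNC libraries. It fell by 0.50 on the log2 scale (adjusted p = 0.0394), a call kept under 6 of 17 alternatives and lost without any library but siNC replicate 2 (adjusted p = 0.0514 to 0.166).

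ITGA2, which with ITGB1 binds collagen and laminin, averaged 1.55 ± 0.271 FPKM in siSHMT2 and 3.53 ± 0.462 FPKM in siNC libraries (SD, n = 3 each), and fell by 0.83 on the log2 scale (limma adjusted p = 0.00473). SDC4, a heparan sulfate proteoglycan coreceptor, averaged 30.5 ± 3.32 FPKM in siSHMT2 and 50.1 ± 10.7 FPKM in siNC libraries, and fell by 0.68 (adjusted p = 0.029). The SDC4 call was lost without siSHMT2 replicate 1, 2 or 3 (0.116, 0.11 and 0.0584) or siNC replicate 3 (0.0633). ITGA3, the alpha subunit that pairs with ITGB1 to bind laminins with the LAMA3 or LAMA5 chain, is added here after its values were seen. It had 52.9, 46.9 and 55.3 FPKM in siSHMT2 libraries, against 60.6, 72.7 and 74.4 FPKM in siNC libraries, with a log2 fold change of -0.41 (limma adjusted p = 0.0677). The remaining receptors overlapped between groups except ITGA1, which lay below the filter.

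Of the 4 receptors called, SDC4 and ITGA6 held a searched word, in 3′ UTRs of 1976 and 2162 bases. ITGB1 and ITGA2 held neither, in 1323 and 4180 bases. Over the tested protein-coding genes other than SHMT2 the median was 1574 bases, and 25.6% held a word. POMGNT1 and POMGNT2, enzymes described below, were also searched and held neither. The words came from these same fold changes, so this too is a description only. The sites are shown for comparison with the 7 tested chains, which lacked them, with the word in capitals in the sense of the transcript. They lie at chr20:45327222-45327250 and chr20:45326279-45326307 on the minus strand for SDC4 and at chr2:172505480-172505508 on the plus strand for ITGA6 (GRCh38).
SDC4 first site: gcactggcttgGACTTTAgcggggaggga
SDC4 second site: tttttttttatACTTTAAaccccgctcct
ITGA6: atttaacaagaACTTTAAattgtgtttta

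Partners of laminin in the basement membrane stood as follows. Of a list of 21 partners 11 entered the test, and 1 was lower and 0 higher by limma, beside 9.85% of all genes tested called lower and 6.07% called higher, so the share of partners called lower was near that of all genes. At an unadjusted p below 0.05, 4 were lower and 0 higher, beside 16% and 14.2% of all genes tested, and the median log2 fold change was -0.21 against 0.02 over all genes tested. The lower one was AGRN, the proteoglycan agrin, which binds the coiled coil of laminin and links it to dystroglycan. AGRN had 17.9, 17.6 and 18.0 FPKM in siSHMT2 libraries, against 26.5, 32.2 and 25.0 FPKM in siNC libraries. It fell by 0.61 on the log2 scale (SE 0.117, limma adjusted p = 0.0121) and lost its call once siSHMT2 replicate 1, 2 or 3 was left out (0.0649, 0.0562 and 0.0561). Its 3′ UTR of 1137 bases held ACTTTAA within the last bases of the transcript. This is a description only, beside the 25.6% of tested protein-coding genes with either word. COL18A1 and COL4A2, a multiplexin and a network collagen of basement membranes, and FBLN2, a laminin-binding fibulin, had log2 fold changes of -0.37, -0.27 and -0.31 (adjusted p = 0.0969, 0.103 and 0.145), with FBLN2 at -0.20 without siNC replicate 1. NID1, the nidogen that bridges LAMC1 to collagen IV, had 8.66, 8.998 and 8.43 FPKM in siSHMT2 libraries, against 10.9, 9.32 and 10.4 FPKM in siNC libraries (log2 fold change -0.21, adjusted p = 0.196). Of the 11 tested partners 8 had a negative log2 fold change, and COL4A1, COL4A5 and PXDN stood at 0.04, 0.01 and 0.01. Perlecan (HSPG2) was below the filter, at 0.189 to 0.293 FPKM in siSHMT2 and 0.175 to 0.502 FPKM in siNC libraries. NID2 and COL4A6, also below it, were higher in every siSHMT2 library than in any siNC library. NID2 averaged 0.426 FPKM in siSHMT2 and 0.228 in siNC libraries, and COL4A6 0.767 and 0.387.

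Some enzymes that build the sugars of dystroglycan, the laminin-binding sugar among them, stood on the other side. Of the 11 described here, 6 entered the test, and 2 were higher and 0 lower by limma, beside 6.07% of all genes tested called higher and 9.85% called lower, with a median log2 fold change of 0.28 against 0.02. At an unadjusted p below 0.05, 3 were higher and 0 lower, beside 14.2% and 16% of all genes tested. The count of higher genes at the adjusted threshold was 0 without siSHMT2 replicate 1, 2 or 3 or siNC replicate 3. POMGNT1, an N-acetylglucosaminyltransferase of the O-mannosyl pathway, had 20.1, 20.2 and 20.9 FPKM in siSHMT2 libraries, against 11.2, 15.5 and 15.1 FPKM in siNC libraries. It rose by 0.53 on the log2 scale (SE 0.134, limma adjusted p = 0.0331). POMGNT2, which adds N-acetylglucosamine on the laminin-binding branch of that pathway, had 30.5, 29.6 and 31.8 FPKM in siSHMT2 libraries, against 23.0, 23.2 and 23.5 FPKM in siNC libraries. It rose by 0.39 on the log2 scale (SE 0.0929, limma adjusted p = 0.0288). For both genes every siSHMT2 library lay above every siNC library. With the libraries named above left out in turn, the adjusted p was 0.0524 to 0.115 for POMGNT1 and 0.063 to 0.139 for POMGNT2. B4GAT1, which primes the sugar for elongation, averaged 34.0 ± 1.85 FPKM in siSHMT2 and 26.2 ± 2.24 FPKM in siNC libraries (SD, n = 3 each; log2 fold change 0.37, limma adjusted p = 0.0585). POMT2, an O-mannosyltransferase that starts the chain, had 7.39, 7.20 and 7.65 FPKM in siSHMT2 libraries, against 5.35, 7.72 and 6.32 FPKM in siNC libraries, with overlap (log2 fold change 0.19, limma adjusted p = 0.377). Its log2 fold change was 0.07 without siNC replicate 1 (adjusted p = 0.671) and 0.30 without siNC replicate 2 (0.082). DAG1, dystroglycan itself, had 15.8, 16.4 and 15.8 FPKM in siSHMT2 libraries, against 17.2, 15.2 and 17.7 FPKM in siNC libraries, with overlap (log2 fold change -0.05, 95% interval -0.28 to 0.17, limma adjusted p = 0.751).

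**Figure D3:**
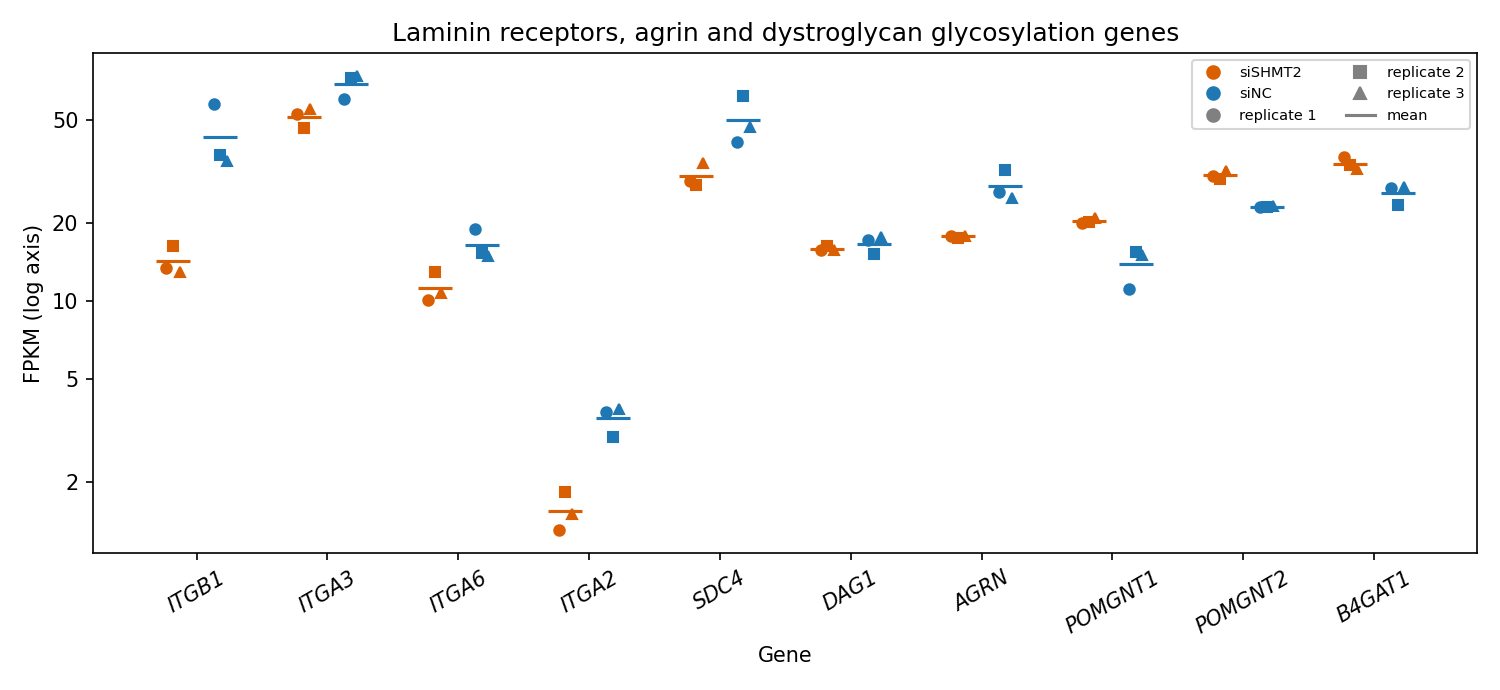
FPKM of laminin receptors, agrin, dystroglycan and enzymes of its glycosylation in each library on a log axis, with siSHMT2 in orange to the left of siNC in blue and bars for means of 3 libraries. ITGB1, ITGA3, ITGA6, ITGA2, SDC4 and AGRN lay lower in all 3 siSHMT2 libraries, POMGNT1, POMGNT2 and B4GAT1 lay higher, and DAG1 overlapped.

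**Figure D4:**
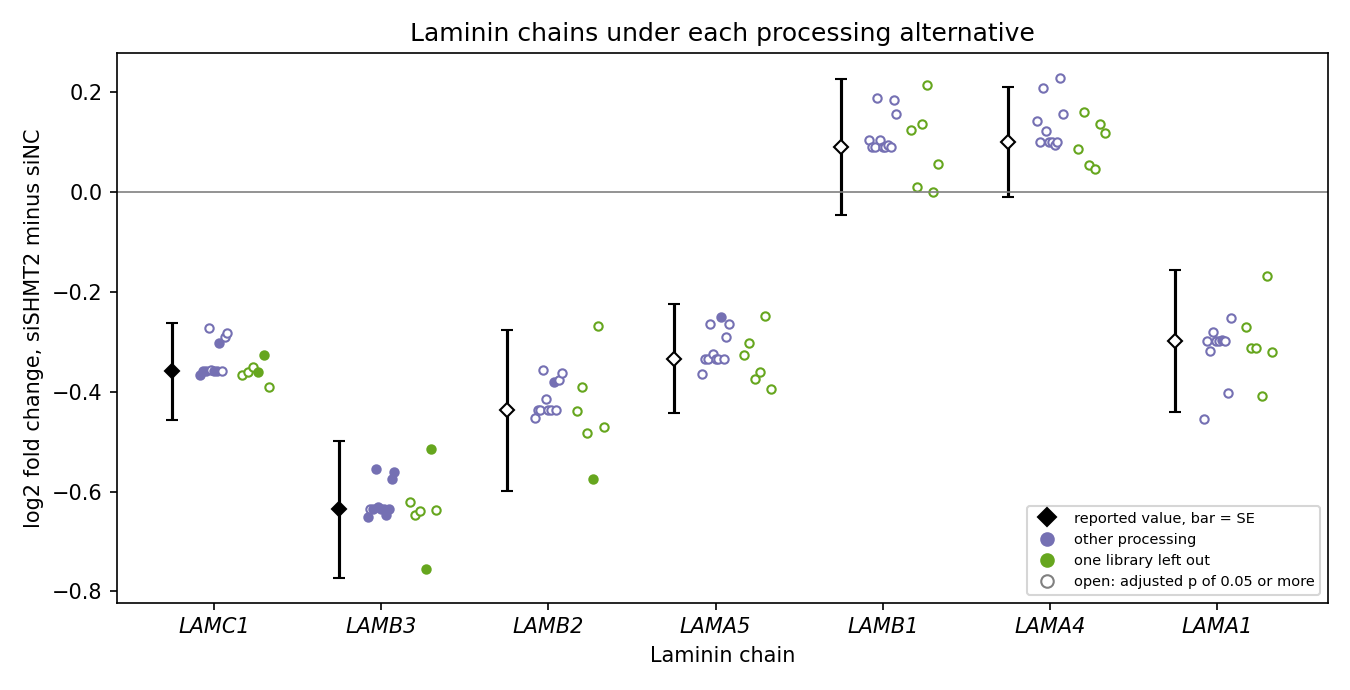
Log2 fold change (siSHMT2 minus siNC) of the 7 tested chains as reported, with its SE, under 11 other processing choices and with each of 6 libraries left out; filled symbols have a limma adjusted p below 0.05. LAMB3, LAMC1, LAMB2, LAMA5 and LAMA1 stayed negative throughout, LAMA4 stayed positive, and LAMB1 came to 0 without siNC replicate 2.

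The plot of alternatives shows how far each chain depended on single choices. LAMB3 was called lower under 12 of 17 alternatives and LAMC1 under 8 of 17. LAMA5 ran from -0.40 to -0.25 and was called under 1, array weights (adjusted p = 0.0275), as was LAMA1 under 1 of 16 (0.0319). LAMA4 was called under 0 of 16 and LAMB1 under 0 of 17 by limma.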

How the data were processed

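The authors deposited 1 table of FPKM values per gene and library. The submitters' processing notes name the aligner HISAT2 (2.0.5), the counter featureCounts (1.5.0-p3) and the build hg18. GENCODE release 29 (GRCh38) held 58516 of the gene identifiers, and 79.7% of these had identical start and end, so coordinates are those of the table and match GRCh38 (4 of the 9 chains had identical ends). Reads were recovered by multiplying each FPKM by gene length and dividing by the value of 1 read, which came within 0.02 of an integer for 100% of nonzero values.

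The test was limma (3.58.1, R 4.3.3) on log2(FPKM + 1) for genes averaging 1 FPKM or more, with an intensity trend, Benjamini-Hochberg adjustment over all 10865 genes and a threshold of 0.05. Fold changes on this scale understate those of low genes. The fit was tested on simulated data. Ratios were compared by exact permutation. Gene-level values do not separate transcript forms, and precision is limited by 3 libraries a group.

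The members and lists were chosen with earlier results of these data known. All chains, and from each list up to 4 tested genes with the smallest adjusted p, were named; some genes of the rule and lists are not reported here, and counts leave them out. The 17 alternatives covered pseudocount, filter, scaling, biotype, moderation, weights, replicate block, voom and each library left out. The longest annotated 3′ UTRs of at least 50 bases were searched in Python 3.11.15. Protein sequences were not used here.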

Additional observations from a re-analysis of the deposited data

How the results depend on the processing

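SHMT2 kept its call and direction under all 17 alternatives, and LAMB3, LAMC1, LAMB2, LAMA5 and LAMA1 kept theirs in direction. LAMB1 reversed without siNC replicate 2, to -3.85e-05 on the log2 scale, and reached 0.21 without siNC replicate 1. The count of chains called lower, 2 as reported, was 1 with no filter, TPM, quantile normalization, voom on recovered reads or FPKM from plain read sums, and 5 with array weights. The weights were 0.305, 0.263 and 2.68 for siNC replicates 1 to 3, and 4.94, 0.881 and 1.07 for siSHMT2 replicates 1 to 3. That fit thus leaned mostly on siNC replicate 3 and siSHMT2 replicate 1. Array weights gave 5 basement membrane partners lower, against 1. No filter left 2 receptors lower, against 4, and 1 glycosylation gene higher, against 2. With a library left out, the chains called lower numbered 0 to 3, partners lower 0 to 2, receptors lower 2 to 4 and glycosylation genes higher 0 to 2. The cause of these moves was not tested, though leaving out a library also leaves fewer samples.

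Deviations from the group mean had correlations of -0.02, -0.35 and 0.24 between same-numbered libraries of the groups. Between unlike-numbered libraries the correlations ran from -0.48 to 0.50. With 3 libraries a group, these values cannot decide whether same-numbered libraries were handled together. No siSHMT2 library correlated best with the siNC library of its own number, and of the siNC libraries only replicate 3 did so in return. The fit with the replicate block called 1 chain lower, LAMB3 (adjusted p = 0.043), 2 receptors lower and 0 glycosylation genes higher by limma. With the block 374 genes were higher and 696 lower of all tested, against 659 and 1070 without it. The ratios kept their direction with a pseudocount of 0.1 and without each library.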
